A study of Mus musculus with 6 samples.

Results

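Solute carrier (Slc) genes were read from spatially barcoded RNA libraries of the dentate gyrus (DG) and the CA1 of the adult mouse hippocampus. Members were all genes whose symbol begins with Slc and a digit, other than the glial glutamate transporters Slc1a2 and Slc1a3. The rule took 124 of the 7507 genes listed with at least 1 unique molecular identifier (UMI), the random tag that marks each captured molecule. All 124 had an entry in RefSeq's GRCm38.p6 annotation, the assembly behind mm10. They belong to 32 families, and the symbol rule also brought in 4 genes that are not carriers (Slc9a3r1, Slc9a3r2, Slc4a1ap and Slc2a4rg-ps), which held 8 UMIs in all.

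The libraries came from 3 fresh frozen adult mouse brain sections, in each of which the granular layer of the DG and the CA1 were illuminated in turn, so that BALI, a method that ligates a barcode only where light has removed a chemical cage, marked the RNA of each area with its own 4-digit barcode. Each section therefore gave a DG and a CA1 library, 6 in all, without any treatment, and both regions carry the same genotype. The sample labels give an age of 12 weeks while the collection protocol gives 8 to 12 months, neither names a strain, and the labels do not say whether the 3 sections came from 3 animals. The p-values below measure the spread between these sections only, which may be technical.

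Solute carriers move small molecules and ions across membranes without burning ATP themselves, and most of them run on the sodium, proton or voltage gradients that ion pumps set up. In hippocampal neurons they load glutamate into synaptic vesicles, clear transmitters and osmolytes from the extracellular space, set the chloride gradient on which GABA acts and push calcium out after firing. Most members of family 25 sit in the inner mitochondrial membrane and exchange ATP, phosphate and substrates with the cytosol. The comparison of the DG with the CA1 asks which genes differ between both areas of the same section.

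The DG libraries held 17999, 4572 and 6298 UMIs in sections 1, 2 and 3, and the CA1 libraries 9357, 2844 and 4865. Levels are given below as UMIs per 10000 UMIs of the library. At these depths 3 UMIs, the limit that a count of 0 allows, stand for 1.67 to 6.56 UMIs per 10000 in the DG and for 3.21 to 10.5 in the CA1, so that most carriers lay at or under the limit of a single library. The defining markers of both areas were sparse as well. Prox1, C1ql2 and Dsp, genes of DG granule cells, were not among the listed genes, and Synpr had 5, 0 and 1 UMIs in the DG against 0 in each CA1 library. Of the CA1 genes, Wfs1 and Neurod6 had 2 UMIs each, all in CA1 section 1, while Fibcd1 had 1 UMI, in DG section 1. Mpped1 had 1, 0 and 0 UMIs in the DG against 1, 0 and 2 in the CA1. Pou3f1, the best covered of these CA1 genes with 10 UMIs, had 2, 2 and 2 in the DG against 4, 0 and 0 in the CA1. Its UMIs in sections 2 and 3 thus came from the DG alone, and it did not mark the CA1 libraries there. Intervals and limits cover counting error only.

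Carriers were detected thinly, and their summed level did not separate the areas. The 124 genes had 196, 42 and 81 UMIs in the DG of sections 1, 2 and 3 and 91, 29 and 45 in the CA1, a total of 484. Their summed level was 109, 91.9 and 129 UMIs per 10000 in the DG against 97.3, 102 and 92.5 in the CA1. The ranges overlapped, with the DG higher in 2 of 3 sections and a mean of 110 ± 18.4 against 97.2 ± 4.74 (SD, n = 3 sections). The section-wise log2 ratio of DG over CA1 was 0.16 ± 0.31 (SD, n = 3), smaller than its spread. In these bulk libraries fewer cells of a type and less RNA per cell cannot be told apart.

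Most members rested on a few molecules. Exactly 1 UMI was seen for 42 members (33.9%, beside 32.7% of all genes), 1 to 4 UMIs for 98, 5 to 9 for 18 and at least 10 for 8 (6.45%, beside 13.3% of all genes). The median was 2 UMIs a member and 3 over all genes. A UMI in a single library was all that 54 members had, and 4 members had a UMI in all 6 libraries. UMIs appeared only in the DG for 51 members (41.1%, beside 35.2% of all genes) and only in the CA1 for 18 (14.5%, beside 16.8%), with the DG holding 62.8% of the UMIs of all genes. Libraries of sections 1, 2 and 3 showed 69, 32 and 50 members in the DG against 52, 18 and 30 in the CA1. After thinning every library to the 2844 UMIs of the shallowest, the mean number detected was 22.8, 21.8 and 27.8 in the DG against 21.3, 18 and 19.6 in the CA1. All genes showed the same order at that depth, with 1710, 1662 and 1675 detected in the DG against 1636, 1579 and 1624 in the CA1. Members made up 1.33%, 1.31% and 1.66% of the genes detected in the thinned DG libraries against 1.30%, 1.14% and 1.21% in the CA1, with no test of the difference.

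**Figure D1:**
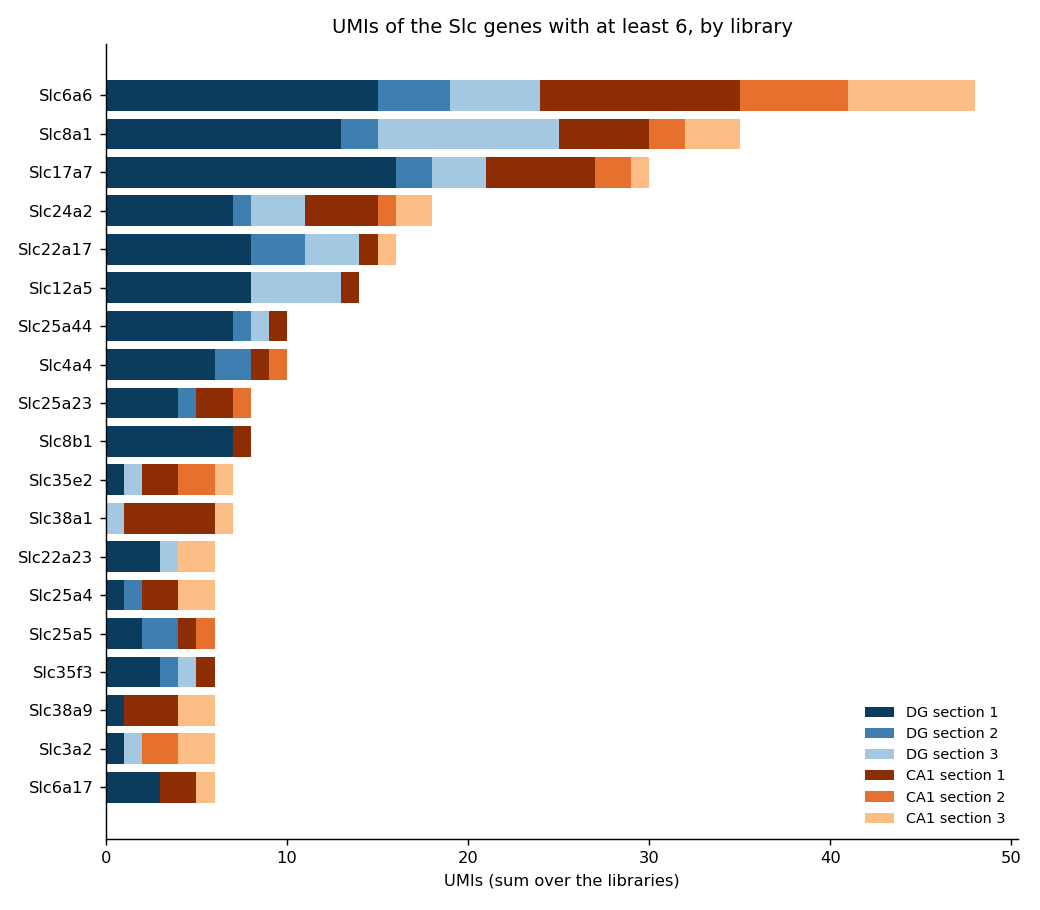
UMIs of the 19 Slc genes with at least 6 UMIs (x axis, summed over libraries), each bar split by library, DG in blues and CA1 in browns. Slc6a6 with 48, Slc8a1 with 35 and Slc17a7 with 30 UMIs stand out, and DG section 1, the deepest library, gives the longest stretch of most bars.

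The most abundant carriers were a taurine, a calcium and a glutamate carrier: Slc6a6, Slc8a1 and Slc17a7 held 113 of the 484 UMIs (23.3%). Dividing by annotated exon length changed this order. Reverse transcription was primed at poly-A tails and each UMI marks a molecule, so longer transcripts need not give more UMIs. The scale is a description and not a needed correction. Per kilobase of annotated exon, Slc17a7 led with 10.2 UMIs summed over the libraries, followed by Slc6a6 with 7.43, Slc22a17 with 6.67 and the adenine nucleotide carriers Slc25a5 with 4.63 and Slc25a4 with 4.50. Slc8a1, whose annotated exons cover 19855 bases, fell to rank 11 of 124 on this scale with 1.76 UMIs per kilobase. The members' exons had a median length of 4552.5 bases, beside 4297.5 for the 7358 other genes with a length. The 2 adenine nucleotide carriers are close paralogs, so reads that match both may have been lost or split, and their counts are uncertain.

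In edgeR's quasi-likelihood test of DG against CA1, 43 genes passed the filter on low counts, no member among them, and 0 were called at an adjusted p under 0.05 (0% of those tested); 3 (6.98%) had an unadjusted p under 0.05 by edgeR and 0 were called by DESeq2. Without the filter, 0 of all 7507 genes were called (0%), and 127 (1.69%) had an unadjusted p under 0.05. Of the 124 members 0 were called and 1, Slc12a5, was below 0.05 before adjustment, beside the 1.69% of all genes. The single members below are therefore given by their UMIs, with an exact permutation test of the 6 library levels, whose smallest two-sided p with 3 against 3 libraries is 0.1, and with the 95% exact interval of the ratio of summed UMIs. Neither the permutation test nor the main edgeR fit uses the pairing of libraries by section.

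Among the transmitter carriers, the 9 members of families 6 and 17 held 96 UMIs, 48 of them from Slc6a6, the transporter that takes up taurine. Slc6a6 (chr6:91684048-91759063, plus strand, GRCm38.p6) had 15, 4 and 5 UMIs in the DG of sections 1, 2 and 3 and 11, 6 and 7 in the CA1. This was 8.33, 8.75 and 7.94 UMIs per 10000 in the DG against 11.8, 21.1 and 14.4 in the CA1. The DG libraries lay close together and each was below every CA1 library, so the groups did not overlap. The means were 8.34 ± 0.405 and 15.7 ± 4.82 UMIs per 10000 (SD, n = 3). The summed UMIs gave a DG over CA1 ratio of 0.591 (95% interval 0.321 to 1.09), an interval that includes 1. The exact permutation p was 0.1, the smallest possible, and the log2 fold change in the edgeR fit of all genes was -0.55 ± 0.63 (SE), adjusted p = 0.663.

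Of the 8 members with at least 10 UMIs, 1 (Slc6a6) had every DG library below every CA1 library, beside 5.11% of the 999 genes of that depth, and 2 had every DG library above, beside 7.11%. Counted by section, 1 member was lower in the DG in 3 of 3 sections (11.8% of those genes) and 2 were higher (13.8%). With 8 members these counts cannot be set apart from the background. An annotated transcript on the other strand, Gm44981, overlaps the exons of Slc6a6, and the counting did not use strand. The summed level of 6 oligodendrocyte markers was 50.3 to 79.4 UMIs per 10000 in the DG against 66.8 to 99.4 in the CA1, and that of 4 neuronal markers 139 to 227 and 218 to 313. Both lists were, like Slc6a6, lower in the DG in 3 of 3 sections, and their part in its level was not tested. Meg3 gave 725 of the 906 UMIs of the neuronal list. The sum of its other 3 genes was also lower in the DG in each section, at 32.8 to 46.0 against 38.5 to 52.7 UMIs per 10000, although Snap25 alone was higher there in 2 sections and Syt1 and Rbfox3 in 1 each. The 7 astrocyte markers listed, with 31.1 to 47.6 UMIs per 10000 in the DG against 36.3 to 52.7 in the CA1, were lower in the DG in 2 of 3.

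Slc17a7 encodes VGLUT1, which loads glutamate into the synaptic vesicles of hippocampal excitatory neurons. It lies at chr7:45163921-45176139 on the plus strand, with 16, 2 and 3 UMIs in the DG against 6, 2 and 1 in the CA1. The corresponding levels were 8.89, 4.37 and 4.76 UMIs per 10000 in the DG against 6.41, 7.03 and 2.06 in the CA1. The groups overlapped, with section 2 running against the other two. The ratio of summed UMIs was 1.38 (0.606 to 3.42), the exact permutation p was 0.7 and the edgeR log2 fold change 0.60 ± 0.79 (SE), adjusted p = 0.706. Leaving out DG section 1 turned the sign, to -0.20.

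The other transmitter carriers were close to the limit of detection. VGLUT2 (Slc17a6) and the vesicular GABA transporter (Slc32a1) were not among the listed genes. Slc6a11, the glial GABA transporter GAT3, had 1 UMI, in CA1 section 1. The interneuron markers were equally thin, with 2 UMIs of Gad1 and 4 of Gad2. Slc6a17, a vesicular carrier of neutral amino acids, had 3, 0 and 0 UMIs in the DG against 2, 0 and 1 in the CA1. Further members, Slc6a7 (proline), Slc6a8 (creatine), Slc6a9 (glycine) and Slc17a5 (sialin), had 1 to 3 UMIs each.

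The transmitter class as a whole followed its most abundant member. Its summed level was 22.2, 17.5 and 15.9 UMIs per 10000 in the DG against 21.4, 28.1 and 20.6 in the CA1, and the ranges overlapped. The log2 ratio of DG over CA1 was -0.33 ± 0.37 (SD, n = 3 sections). Without Slc6a6 the sign turned: the other 8 genes had 13.9, 8.75 and 7.94 UMIs per 10000 in the DG against 9.62, 7.03 and 6.17 in the CA1, a log2 ratio of 0.40 ± 0.11. They were higher in the DG in 3 of 3 sections, but on 48 UMIs the ratio of summed counts was 1.44 with an interval of 0.750 to 2.90, and the ranges of both areas overlapped.

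**Figure D2:**
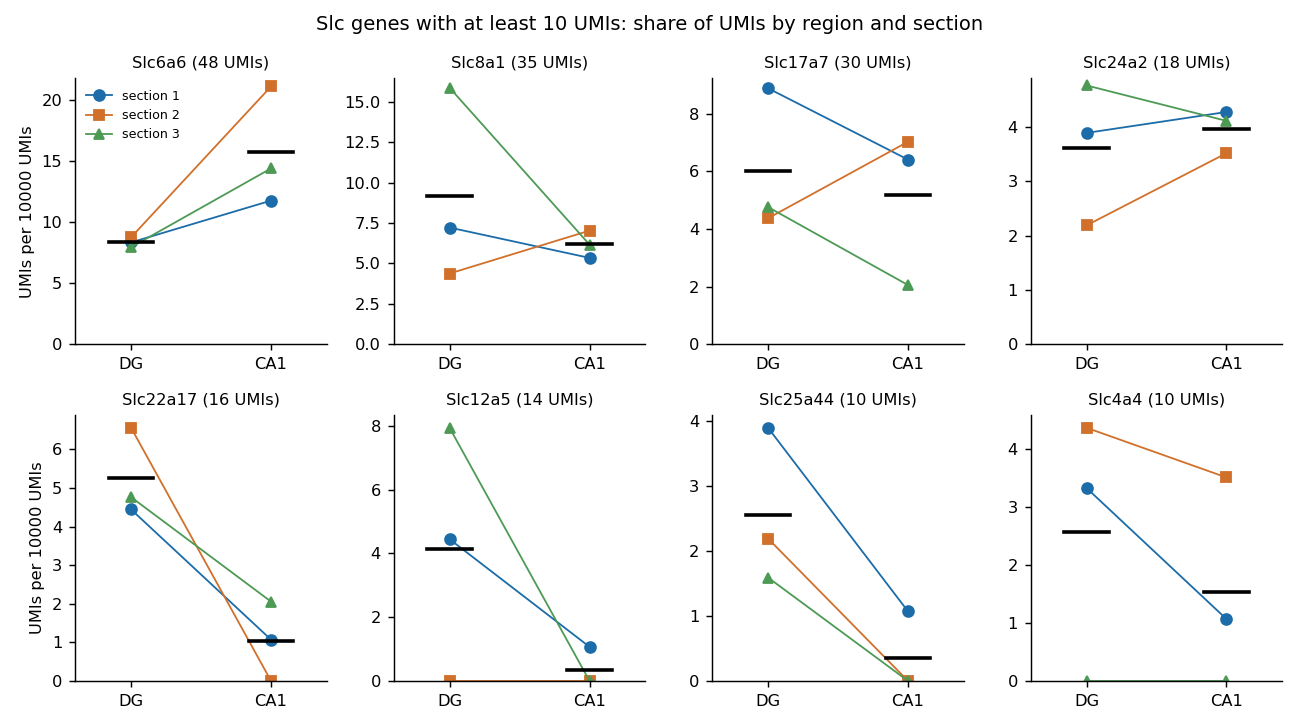
UMIs per 10000 UMIs of the library (y axes, each starting at 0) for the 8 Slc genes with at least 10 UMIs, in the DG and the CA1, lines joining the libraries of a section and black bars the means of 3. Slc6a6 lies lower in the DG and Slc22a17 and Slc25a44 higher in all 3 sections, while the lines of Slc8a1, Slc17a7 and Slc24a2 run in opposite directions.

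Ion carriers were the class with most genes and most UMIs, 32 and 151. Their summed level was 37.8, 19.7 and 46.0 UMIs per 10000 in the DG of sections 1, 2 and 3 and 28.9, 24.6 and 22.6 in the CA1. The DG was higher in sections 1 and 3 and lower in section 2, for a log2 ratio of 0.36 ± 0.67 (SD, n = 3) that was well inside its spread.

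The calcium exchangers, 7 members of families 8 and 24, carried 71 of these 151 UMIs. Slc8a1, the sodium/calcium exchanger NCX1 of the plasma membrane (chr17:81373105-81738387, minus strand), had 13, 2 and 10 UMIs in the DG against 5, 2 and 3 in the CA1. Its level was 7.22, 4.37 and 15.9 UMIs per 10000 in the DG against 5.34, 7.03 and 6.17 in the CA1. DG section 3 was the highest and DG section 2 the lowest of the 6 libraries, so the CA1 values lay within the DG range. The ratio was 1.48 (0.686 to 3.45), the exact permutation p 0.6 and the edgeR log2 fold change 0.79 ± 0.74 (SE), adjusted p = 0.663.

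Slc24a2, the potassium-dependent exchanger NCKX2 that also exports calcium from neurons (chr4:86983124-87230652, minus strand), had 7, 1 and 3 UMIs in the DG against 4, 1 and 2 in the CA1. Its levels, 3.89, 2.19 and 4.76 UMIs per 10000 in the DG against 4.27, 3.52 and 4.11 in the CA1, overlapped fully. The ratio of 0.929 (0.329 to 2.83) and the edgeR log2 fold change of 0.12 ± 0.93 (SE), adjusted p = 0.936, showed no direction, and scaling by total UMIs turned the latter to -0.11. The exact permutation p was 0.8. Slc8b1, the exchanger that releases calcium from mitochondria, had 7 of its 8 UMIs in DG section 1 and the other in CA1 section 1. Slc8a2 and Slc8a3, the NCX2 and NCX3 exchangers, had 4 and 1 UMIs, all in the DG.

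For the chloride carriers, UMIs fell mostly in the DG. Slc12a5 encodes KCC2, the neuronal potassium/chloride cotransporter that keeps intracellular chloride low and so makes GABA inhibitory (chr2:164960846-164999731, plus strand). It had 8, 0 and 5 UMIs in the DG against 1, 0 and 0 in the CA1, or 4.44, 0 and 7.94 against 1.07, 0 and 0 UMIs per 10000. Sections 1 and 3 were higher in the DG, and section 2 had no UMI in either area, where a count of 0 allows up to 6.56 and 10.5 UMIs per 10000. The ratio of 7.68 (1.15 to 327) rests on a single CA1 molecule. The exact permutation p was 0.4, and the edgeR log2 fold change of 2.81 ± 1.29 (SE) had an unadjusted p of 0.0298 and an adjusted p of 0.663.

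The other members of this family were rarer. Slc12a2, the chloride importer NKCC1, had 1 UMI in DG section 1, and Slc12a4 and Slc12a9 had 1 each, in the DG. The 5 genes of family 12 together had 12, 1 and 6 UMIs in the DG against 1, 0 and 2 in the CA1, or 6.67, 2.19 and 9.53 UMIs per 10000 against 1.07, 0 and 4.11. The DG exceeded the CA1 in 3 of 3 sections, but the ranges overlapped, since DG section 2 lay below CA1 section 3. The family was picked out after its values were seen.

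Bicarbonate and proton carriers were spread over many genes with few UMIs each. Slc4a4, the sodium/bicarbonate cotransporter NBCe1 known from astrocytes (plus strand, chr5:88793858-89239656), had 6, 2 and 0 UMIs in the DG against 1, 1 and 0 in the CA1, and section 3 had none in either area. Its levels of 3.33, 4.37 and 0 UMIs per 10000 in the DG against 1.07, 3.52 and 0 in the CA1 overlapped, with a ratio of 2.36 (0.472 to 22.9), an exact permutation p of 0.8 and an edgeR log2 fold change of 1.28 ± 1.29 (SE), adjusted p = 0.663. Slc4a3, Slc4a7 and Slc4a10, further bicarbonate carriers, had 5 UMIs each, 4 in the DG against 1 in the CA1. The 8 genes of family 9, sodium/proton exchangers together with the adaptors Slc9a3r1 and Slc9a3r2, had 7 UMIs in the DG against 11 in the CA1. By section these were 4, 0 and 3 against 9, 0 and 2. The adaptors held 0 and 1 of the DG UMIs and 2 each of the CA1 UMIs.

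The pumps that build the gradients used by these carriers were better covered. Of 20 pump genes, 18 were listed and 13 had at least 10 UMIs, and their summed level was 76.7 to 101 UMIs per 10000 in the DG against 87.9 to 97.3 in the CA1, ranges that overlapped. Atp2b1, a calcium pump of the plasma membrane, had 49, 10 and 12 UMIs in the DG against 36, 7 and 12 in the CA1, more than any single carrier. Its level was lower in the DG in each section, at 27.2, 21.9 and 19.1 UMIs per 10000 against 38.5, 24.6 and 24.7, with overlapping ranges. Atp1b1, a subunit of the sodium pump, had 8, 8 and 5 UMIs against 2, 2 and 3. These were 4.44, 17.5 and 7.94 UMIs per 10000 against 2.14, 7.03 and 6.17, higher in the DG in each section but overlapping. Atp2b2 and Atp2a2, further calcium pumps, had 38 and 25 UMIs in all. Over all 32 partner genes listed (pumps, enzymes of glutamate and GABA metabolism, mitochondrial partners and carrier chaperones), 0 passed the edgeR test without a filter in either direction. Enzymes that make or break down glutamate and GABA were as sparse as their carriers, with at most 8 UMIs a gene.

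**Figure D3:**
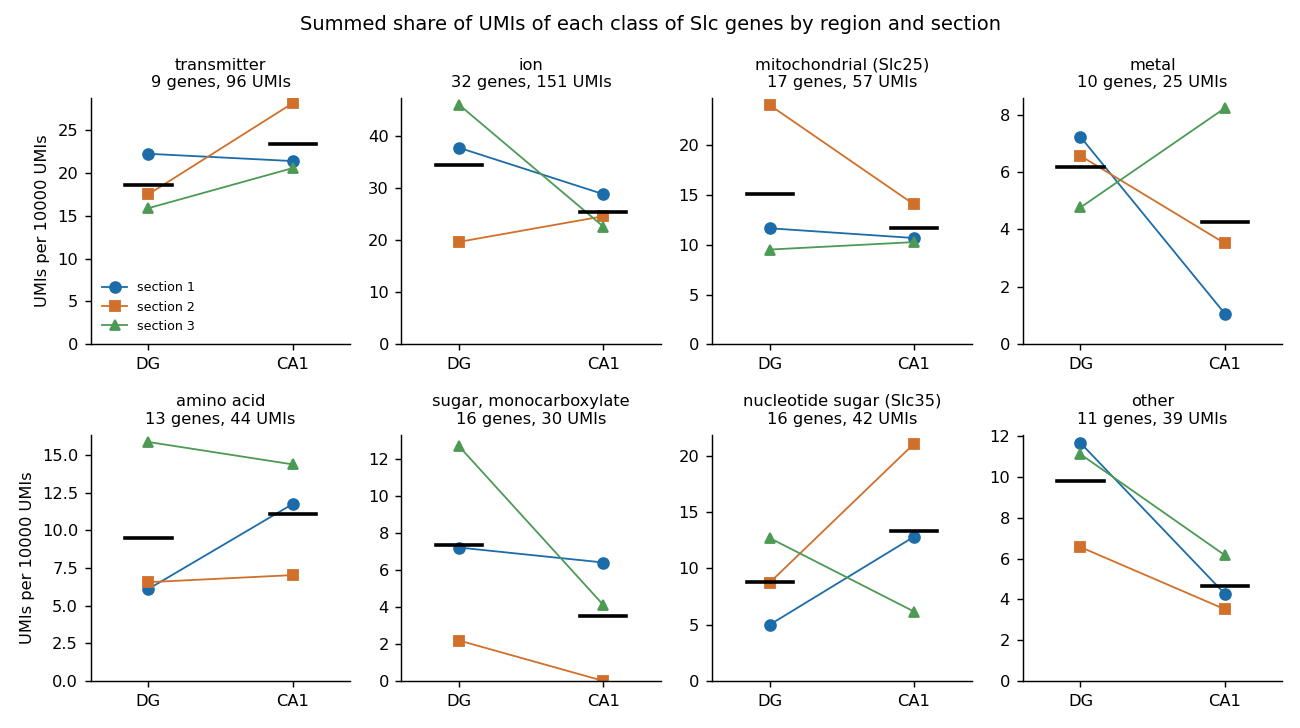
Summed UMIs per 10000 UMIs (y axes, each starting at 0) of 8 classes of Slc genes in the DG and the CA1, with lines joining the libraries of a section and black bars the means of 3. Only the class of other carriers has all 3 DG libraries above all 3 CA1 libraries (6.56 to 11.7 against 3.52 to 6.17), and Slc22a17 holds 16 of its 39 UMIs.

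Mitochondrial carriers of family 25 were 17 genes with 57 UMIs. They had 21, 11 and 6 UMIs in the DG against 10, 4 and 5 in the CA1, or 11.7, 24.1 and 9.53 UMIs per 10000 against 10.7, 14.1 and 10.3. DG section 2 was far above the rest and DG section 3 the lowest of all, so that the areas overlapped and the log2 ratio was 0.26 ± 0.46 (SD, n = 3). In DG section 2 the 11 UMIs came from 9 genes, 2 each from Slc25a5 and Slc25a28 and 1 each from the others.

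Slc25a44, a carrier of branched-chain amino acids, was the member of this family with most UMIs (chr3:88410494-88425141, minus strand). It had 7, 1 and 1 UMIs in the DG against 1, 0 and 0 in the CA1, or 3.89, 2.19 and 1.59 UMIs per 10000 against 1.07, 0 and 0. Each DG library lay above every CA1 library, but sections 2 and 3 rest on 1 molecule each. The ratio was 5.32 (0.737 to 233), the exact permutation p 0.1, the smallest possible, and the edgeR log2 fold change 2.26 ± 1.43 (SE), adjusted p = 0.663. Gm33513, annotated on the other strand, overlaps its exons. Without Slc25a44 the log2 ratio of the family was -0.014 ± 0.57, and without section 2, where 1 of the 11 DG UMIs was from this gene, it was 0.0086.

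The carriers that feed oxidative phosphorylation had few UMIs in either area. Slc25a4 and Slc25a5, which exchange ADP for ATP, had 2 and 4 UMIs in the DG against 4 and 2 in the CA1. Slc25a23, an ATP-magnesium/phosphate carrier, had 4, 1 and 0 UMIs in the DG against 2, 1 and 0 in the CA1. Slc25a3, the phosphate carrier, had 1 UMI in each area, and Slc25a12, the aspartate/glutamate carrier, 1 UMI in DG section 2. Slc25a11, which exchanges 2-oxoglutarate for malate, had 3, 0 and 2 UMIs in the DG and none in the CA1. Over all sections this is 1.73 UMIs per 10000 in the DG, while 0 of 17066 CA1 UMIs allows up to 1.76, and at this depth no difference could be seen. Of the partners in the mitochondrial membranes, Vdac1, the pore of the outer membrane, had 7 UMIs and Mpc1 and Mpc2, the pyruvate carrier, 2 each.

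Slc22a17, a receptor for the iron-binding protein lipocalin 2 that is placed among the organic ion carriers, had UMIs in all 3 DG libraries and in 2 of the CA1 libraries. At chr14:54906727-54913132 on the minus strand, it had 8, 3 and 3 UMIs in the DG against 1, 0 and 1 in the CA1. These were 4.44, 6.56 and 4.76 UMIs per 10000 against 1.07, 0 and 2.06, with means of 5.26 ± 1.14 and 1.04 ± 1.03 (SD, n = 3), and the groups did not overlap. The ratio of summed UMIs was 4.14 (0.95 to 37.5), on 2 CA1 molecules. The exact permutation p was 0.1, the smallest possible, and the edgeR log2 fold change was 2.14 ± 1.13 (SE), with an unadjusted p of 0.0589 and an adjusted p of 0.663.

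The class of other carriers, 11 genes of organic ion, fatty acid, choline, vitamin and nucleoside families, had 11.7, 6.56 and 11.1 UMIs per 10000 in the DG against 4.27, 3.52 and 6.17 in the CA1. The areas did not overlap, with a log2 ratio of 1.07 ± 0.33 (SD, n = 3). Without Slc22a17 the other 10 genes had 7.22, 0 and 6.35 against 3.21, 3.52 and 4.11 UMIs per 10000, and overlapped. Slc22a23, an orphan relative, had 3, 0 and 1 UMIs in the DG against 0, 0 and 2 in the CA1, and Slc23a2, a vitamin C transporter, 3 UMIs in DG section 1.

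The 13 genes of the amino acid carriers had 44 UMIs, with 6.11, 6.56 and 15.9 UMIs per 10000 in the DG against 11.8, 7.03 and 14.4 in the CA1. The 5 genes of family 38, sodium-coupled carriers of glutamine and other neutral amino acids, had 4, 0 and 4 UMIs in the DG against 10, 0 and 4 in the CA1. Their level was lower in the DG in sections 1 and 3 and at 0 in both areas of section 2, for a ratio of 0.338 (0.123 to 0.863). Slc38a1, a glutamine transporter of neurons, had 0, 0 and 1 UMIs against 5, 0 and 1, and Slc38a9, a lysosomal arginine sensor, 1, 0 and 0 against 3, 0 and 2. Slc38a2, another neutral amino acid carrier of the family, ran the other way, with 3, 0 and 1 UMIs against none.

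The 5 genes listed from family 7, a family of cationic amino acid carriers and light chains of the heteromeric exchangers, ran the other way. They had 6, 3 and 3 UMIs in the DG against 0, 0 and 1 in the CA1, or 3.33, 6.56 and 4.76 UMIs per 10000 against 0, 0 and 2.06. The areas did not overlap, and the ratio was 7.09 (1.05 to 303) on 1 CA1 molecule. Slc7a14, found in lysosomes, gave 5 of the 13 UMIs, with 3, 0 and 2 in the DG, and Slc7a1, an arginine and lysine carrier, 3. Families 7 and 38 were picked out after their values were seen. Of the 14 families with at least 10 UMIs, 1 (family 7) had every DG library above every CA1 library and 1 (family 6, through Slc6a6) every DG library below. Among single genes with at least 10 UMIs these shares were 7.11% and 5.11%. With 14 families the counts cannot be set apart from such shares. Slc3a2, the heavy chain of the heteromeric exchangers, had 1, 0 and 1 UMIs in the DG against 0, 2 and 2 in the CA1.

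Sugar and monocarboxylate carriers, 16 genes with 30 UMIs, were at the edge of detection. Their level was 7.22, 2.19 and 12.7 UMIs per 10000 in the DG against 6.41, 0 and 4.11 in the CA1, higher in the DG in 3 of 3 sections but overlapping. Slc2a1, the glucose transporter of the blood-brain barrier, had 1 UMI in each area, and Slc2a3, the neuronal glucose transporter, was not among the listed genes. Slc45a4 had 2 UMIs in each area, and Slc5a6, a multivitamin transporter, had 3 in DG section 3. Bsg, the chaperone of the monocarboxylate carriers, had 3, 0 and 1 against 1, 0 and 0. The 3 endothelial markers listed, Slc2a1 itself among them, had 7 UMIs together.

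The nucleotide sugar class was set by the family number, and the function of each gene was not checked. Family 35, which includes carriers that supply the Golgi and endoplasmic reticulum, had 16 genes with 21 UMIs in each area. Their level was 5.00, 8.75 and 12.7 UMIs per 10000 in the DG against 12.8, 21.1 and 6.17 in the CA1, with section 3 against the other two. Slc35e2 had 1, 0 and 1 UMIs in the DG against 2, 2 and 1 in the CA1, and Slc35f3 3, 1 and 1 against 1, 0 and 0. Slc35c2 had 2 UMIs in each area. Among the 26 members with at least 5 UMIs, Slc35e2 joined Slc6a6 as lower in the DG in 3 of 3 sections (7.78% of the 2313 genes of that depth), and Slc35f3 joined Slc22a17 and Slc25a44 as higher (11.2%). These 2 and 3 members were 7.69% and 11.5% of the 26. In each case the libraries of the areas did not overlap either, beside 3.72% (every DG library below) and 7.39% (above) of those genes. With at least 20 UMIs, 1 of 3 members (Slc6a6) lay below in every DG library, beside 4.71% of genes, and 0 above, beside 5.26%; by section the shares of genes were 15% lower and 12.5% higher. Exons of both Slc35 genes overlap another annotated transcript.

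Metal carriers, 10 genes with 25 UMIs, were led by zinc importers. Slc39a10 had 0, 0 and 2 UMIs in the DG against 0, 1 and 1 in the CA1, and Slc39a6 3, 0 and 1 against none. Slc30a9, a relative of the zinc exporters, had 2, 1 and 0 UMIs in the DG and none in the CA1, and Slc30a3, which fills synaptic vesicles with zinc, 1 in each area. The summed level was 7.22, 6.56 and 4.76 UMIs per 10000 in the DG against 1.07, 3.52 and 8.22 in the CA1, and section 3 ran against sections 1 and 2.

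Over the 8 members with at least 10 UMIs the median log2 fold change in the edgeR fit was 1.04, beside 0.24 over the 999 genes of that depth. Trimmed-mean scaling itself lifted the fold changes: with total UMIs as the library size these medians were 0.82 and 0.021. The members' median lay 0.79 above that of all genes under the former and 0.80 above it under the latter scaling, as a description of 8 genes of which 7 had a value above 0 and Slc6a6 a value below. With total UMIs Slc24a2 was below 0 as well. The 116 members under 10 UMIs had 64.4, 59.1 and 81.0 UMIs per 10000 in the DG against 65.2, 59.8 and 63.7 in the CA1, a log2 ratio of 0.10 ± 0.21 (SD, n = 3), and their ranges overlapped. Without Slc6a6 the other members summed to 101, 83.1 and 121 UMIs per 10000 in the DG against 85.5, 80.9 and 78.1 in the CA1, higher in the DG in 3 of 3 sections, with overlapping ranges.

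**Figure D4:**
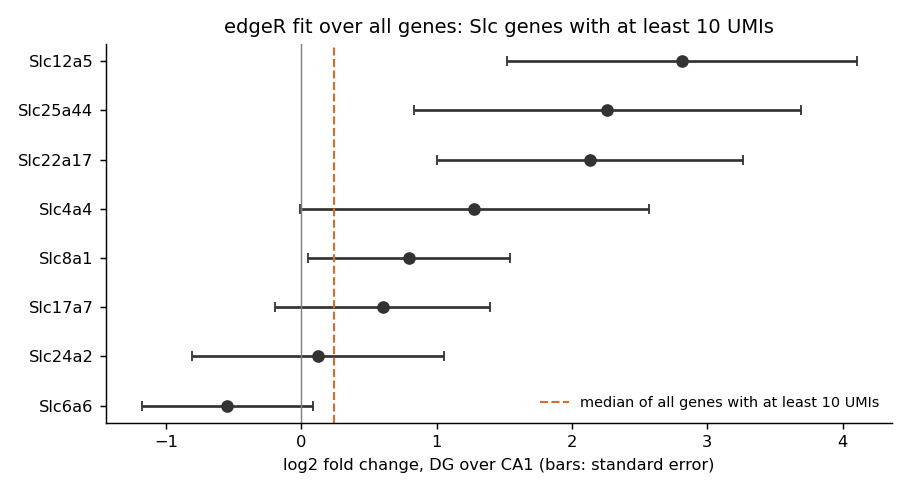
Log2 fold change of DG over CA1 (x axis) in the edgeR fit of all genes for the 8 Slc genes with at least 10 UMIs, bars showing the standard error, with the median of the 999 genes of that depth as a dashed line. Slc12a5 at 2.81 is farthest to the DG side and Slc6a6 at -0.55 farthest to the CA1 side, and 0 of the 8 passed an adjusted p under 0.05.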

How the data were processed

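RNA libraries of the DG and the CA1 from 3 sections, which the study calls biological replicates, were used. The sections' chromatin libraries were not analysed here. Per the labels and the study's methods, the authors extracted a 6-base UMI with UMI-tools, sorted reads by barcode with cutadapt 4.1, mapped them to mm10 with STAR 2.7.9a, assigned them to genes with featureCounts (Subread 2.0.3) under default options, which ignore strand, and counted UMIs per gene. The deposited counts carry an extra 1 in each cell, which was taken off, and a row of totals was dropped. The design called for raw counts, and the extra 1 became known only from the values. The 6 deposited CPM columns and the authors' columns of means, SDs and fold and log10 ratios between areas were not used. Columns were matched to sections and areas by the replicate and barcode numbers in their names and the labels.

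The members, classes, marker and partner lists were chosen with earlier results of these data known. Classes follow the family number: transmitter (1, 6, 17, 18, 32), ion (4, 8, 9, 12, 20, 24, 26, 34), metal, mitochondrial (25), amino acid, sugar and monocarboxylate, nucleotide sugar (35) and other. Genes named are the 15 members with most UMIs, the 3 with most in each class, a list of well-known carriers, the members with the smallest p, and partner genes with at least 20 UMIs. Others were chosen after their values were seen, and some genes of these lists are not reported here.

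DG and CA1 were compared with edgeR 4.0.16 (limma 3.58.1, R 4.3.3; quasi-likelihood test, TMM, filterByExpr by region, library size of all UMIs, Benjamini-Hochberg over all genes tested, threshold 0.05), with the same fit without a filter, and with DESeq2 1.42.0 as an alternative. Fits were tested on simulated data. Exact two-sided permutation tests and exact conditional 95% intervals of ratios of summed UMIs were computed in Python 3.11.15 with pandas 2.3.3, numpy 2.4.6 and scipy 1.17.1. Thinned values are means of 20 draws to 2844 UMIs. The microglia list (2 of 4 genes listed) and the choroid plexus list (2 of 3) had at most 2.14 and 4.76 UMIs per 10000 in a library, and the 4 interneuron and 5 CA1 genes listed at most 6.17 and 9.62.

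The DG and CA1 libraries with the same number are from 1 piece of tissue, which pairs them. Their deviations from the region means correlated across 999 genes at 0.154, 0.0414 and 0.0724, and those of different sections between -0.0897 and 0.00377.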

Additional observations from a re-analysis of the deposited data

How the results depend on the processing

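No member passed the main filter, so the members were tested only without it or with at least 5 UMIs: 0 were called there by edgeR under other scalings, with the replicate block or without a section or a library, and 0 by DESeq2. The deposited counts with the extra 1 (chosen after seeing the data) were fitted with the main filter, on 54 genes and 0 members, and say nothing of the members. Over all genes, 0 were called in 16 of 17 alternatives, and 1 (Prkce, no member) with the replicate block and no filter; the block changed no other call. Of 112 fold changes of the 8 members with at least 10 UMIs under alternatives, 108 kept their sign. The others were Slc17a7 without DG section 1 (-0.20; range over left-out libraries -0.20 to 1.42) and Slc24a2 with total UMIs (-0.11), without DG section 1 (-0.18) and without CA1 section 2 (-0.012; range -0.18 to 0.62); the cause was not tested. The log2 ratio of the transmitter class became 0.40 without Slc6a6. The median log2 fold change over all 124 members was 0.84 beside 0.46 for all genes, ranged from 0.91 to 2.25 when a section was left out (2.25 without section 1) while that of all genes ranged from 0.53 to 0.71. It was 0.43 beside -0.29 without DG section 1, 0.33 beside 0.33 in DESeq2, and -0.76 beside -0.76 with genes at 0 in an area set to 3 UMIs there, so it depends on how zeros are treated. With at least 20 UMIs, 0 members had a higher DG level in each section, and with at least 5 UMIs 2 were lower. Depth limits all of these: 98 of 124 members had under 5 UMIs.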
